A study of Homo sapiens with 15 samples.

Results

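miR-221 and miR-222 are a pair of related miRNAs of the X chromosome, and their 4 mature arms, hsa-miR-221-3p, hsa-miR-221-5p, hsa-miR-222-3p and hsa-miR-222-5p, were followed through every small RNA library of the study. The arms were taken by name from both tables of counts, where they are 4 of 2424 listed miRNAs (2418 in the table of the knockdown, 2189 in that of RIP-seq). Libraries came from FTO1C1, FTO2D4 and FTO3C3, uninduced derivatives of the human embryonic kidney line HEK293, each of which is a clone. For the knockdown, cells received scrambled siRNA or FTO specific siRNA at 10 nM and were harvested after 48 h. FTO is the demethylase that removes the methyl group of N6-methyladenosine (m6A), a modified base of RNA. For RIP-seq, small RNA of untreated cells was sequenced as input, after precipitation with an anti-m6A antibody (m6A) and after precipitation with an IgG isotype control (IgG). Each of the 5 groups has 3 libraries, 1 per cell line. Levels are given as reads per 1000000 miRNA reads of the library (RPM). Because a read covers a whole mature miRNA, no scaling for length was applied.

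A miRNA gene is transcribed as a long primary RNA, from which a hairpin is cut out and then diced into a 5p and a 3p arm. As a rule 1 arm, the guide, is kept in the silencing complex and the other, the passenger, is lost faster. For miR-221 and miR-222 the 3p arms are the guides. They are widely studied as growth-promoting miRNAs that repress the cell cycle inhibitor p27 (CDKN1B) and the receptor KIT. A guide finds its targets mainly through its seed, bases 2 to 8, so guides that share a seed share most predicted targets.

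RefSeq holds mature sequences for 3 of the 4 arms (build GRCh38.p14, chromosome X, minus strand). They are shown because the guides of both genes look alike at the end that reads targets and differ after it. The seed is in capitals.

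miR-221-3p (chrX:45746180-45746202): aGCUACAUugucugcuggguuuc

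miR-222-3p (chrX:45747036-45747056): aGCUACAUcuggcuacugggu

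miR-222-5p (chrX:45747073-45747094): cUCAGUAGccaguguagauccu

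miR-221-3p and miR-222-3p start with the same 8 bases and have the same base at 11 of 21 positions counted from the 5′ end. Among 2370 mature human miRNA names in RefSeq, the seed GCUACAU belongs to these 2 guides and to no other, and UCAGUAG to miR-222-5p alone. Their longest shared run is 8 bases, and the authors required matches that cover at least 17 bases of a read, so a read of one guide does not meet that requirement on the run shared with the other. The short word GAC or AAC, the core of the m6A consensus, is in none of the 3 sequences, and 855 of 2370 mature miRNAs (36.1%) hold it. The 12 longer words of that consensus, in which A or G precedes the core and A, C or U follows it, contain the core and are likewise absent, against 20.7% of mature miRNAs. Searches were on the miRNA strand, and a missing word says nothing about the enzyme. miR-221-5p, for which no mature sequence was listed, was not searched, and it was enriched in m6A over IgG, as given further on.

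The hairpins, with the mature arms listed in RefSeq in capitals, show how both guides sit on the 3′ side of their stem.

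MIR221 (chrX:45746157-45746266): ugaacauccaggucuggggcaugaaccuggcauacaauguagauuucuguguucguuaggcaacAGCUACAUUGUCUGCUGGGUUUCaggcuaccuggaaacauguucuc

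MIR222 (chrX:45747015-45747124): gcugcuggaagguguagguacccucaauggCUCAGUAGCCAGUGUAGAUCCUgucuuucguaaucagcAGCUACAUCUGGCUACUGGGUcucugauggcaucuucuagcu

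Both hairpins lie inside the annotated long non-coding RNA gene MIR222HG, with 748 bases between them, so that 1 primary transcript can carry both. The promoter of MIR222HG is shown as that of the annotated gene which holds both hairpins. The primary transcript was not measured in these libraries, and a link of the promoter to the levels of the arms was not tested. The promoter window runs from 250 bases before to 50 after the annotated start of the gene (chrX:45770218-45770517, minus strand, printed in the direction of transcription).

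MIR222HG: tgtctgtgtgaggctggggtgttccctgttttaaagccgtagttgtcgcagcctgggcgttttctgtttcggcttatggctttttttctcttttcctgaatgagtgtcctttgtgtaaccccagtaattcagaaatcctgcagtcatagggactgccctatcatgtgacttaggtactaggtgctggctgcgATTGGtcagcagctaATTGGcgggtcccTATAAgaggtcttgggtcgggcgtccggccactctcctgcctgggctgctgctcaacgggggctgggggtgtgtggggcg

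The capitals mark matches to CCAAT, here as ATTGG on the opposite strand, beginning 58 and 43 bases before the start, and to TATAA, beginning 30 bases before it. On both strands, CCAAT is found in 34.6% and TATAA in 20.4% of 35116 human promoters of the same length. These matches describe the letters of the window.

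The 6 knockdown libraries held 1991317 to 3876806 and the 9 RIP-seq libraries 186446 to 4973238 miRNA reads, with the fewest in the IgG library of FTO3C3. miR-10a-5p took 22.1% to 30.6% of the knockdown reads. miR-6080 took 15.5% to 28.4% of the input, 41.3% to 47.8% of the m6A and 58.0% to 71.6% of the IgG reads, and its count was the same, 563404, in the m6A and the IgG library of FTO2D4. Whether 1 of these equal counts is wrong was not tested. It makes up 41.3% and 71.6% of these totals, so each m6A and IgG level of FTO2D4 in RPM rests on it, while ratios of arms within a library do not. The 6 miRNAs listed as abundant in HEK293 cells had at least 440 RPM in the input and at least 641 RPM in the knockdown libraries. Of 7 markers of other cell types, those listed were at 247 RPM or less in the knockdown libraries. In the input, miR-223-3p, a miRNA of blood cells, reached 406 to 822 RPM, whereas miR-142-3p, also of blood cells, had 6.00 to 17.8 RPM. The FTO transcript is no miRNA and was not measured in these libraries.

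Knockdown of FTO was used to ask which miRNA levels depend on it. Of the 4 arms, miR-221-3p rose and the other 3 did not pass the test. miR-221-3p, the guide of MIR221, had 1127 RPM in FTO1C1, 306 RPM in FTO2D4 and 638 RPM in FTO3C3 under scrambled siRNA. Under FTO siRNA it had 3649.9, 763 and 1678 RPM. It was thus higher in all 3 cell lines, although the groups overlapped, the knockdown level of FTO2D4 being below the control level of FTO1C1. Within the lines the ratio was 3.24, 2.49 and 2.63 in the same order, 2.79 ± 0.40 on average (SD, n = 3 cell lines). Its log2 fold change of 1.47 (standard error, SE, 0.15) had an adjusted p of 0.000797 in edgeR's quasi-likelihood test, in which the cell line was a block. Of 2397 miRNAs tested, 5.38% were called, 4.88% higher and 0.501% lower, and 5 had a larger log2 fold change than miR-221-3p. Groups did not overlap for 28.2% of all listed miRNAs, and for 0 of the 4 arms. By the rule of the Methods for an increase, here taken as at least 15 RPM in every FTO siRNA library and a mean ratio above 2, 35 of 2418 listed miRNAs (1.45%) were increased, miR-221-3p among them. The paper reports more increased miRNAs at that fold, so the version used here does not reproduce its set.

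miR-222-3p, the guide with the same seed, had 4659, 1645 and 3987 RPM in FTO1C1, FTO2D4 and FTO3C3 with scrambled siRNA and 4224, 1345 and 2876 RPM with FTO siRNA. All 3 cell lines were a little lower after knockdown, with ratios of 0.907, 0.818 and 0.721. The log2 fold change was -0.30 (SE 0.14, adjusted p = 0.194 by edgeR). The passenger miR-222-5p had 329.6, 86.4 and 241 RPM before and 314, 67.0 and 191 RPM after knockdown, which was also lower in each line (log2 fold change -0.25, SE 0.16, adjusted p = 0.336 by edgeR). The passenger miR-221-5p had 738, 153 and 324 RPM under scrambled and 545, 121 and 369 RPM under FTO siRNA. Here the cell lines went apart, with ratios of 0.739 and 0.789 in FTO1C1 and FTO2D4 and 1.14 in FTO3C3 (log2 fold change -0.20, SE 0.17, adjusted p = 0.476 by edgeR).

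The zero of these fold changes depends on the scaling. Over all tested miRNAs the median was 0.29, so miR-221-3p stood 1.18 above the median and miR-221-5p, miR-222-3p and miR-222-5p at -0.49, -0.59 and -0.54 relative to it. With TMM factors, which place the median near 0, 22 miRNAs were called higher and 36 lower in place of 117 and 12, and miR-221-3p was still called (log2 fold change 1.18, adjusted p = 0.00467 by edgeR). DESeq2 also called miR-222-3p lower (log2 fold change -0.59, adjusted p = 0.0164). Without FTO1C1 the log2 fold change of miR-221-3p was 1.36 but no longer called (adjusted p = 0.116 by edgeR), and 0 of 2363 miRNAs were called then, with 327 at an unadjusted p under 0.05. Without the cell line as a block its log2 fold change was 1.55 and its adjusted p 0.15 by edgeR.

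**Figure D1:**
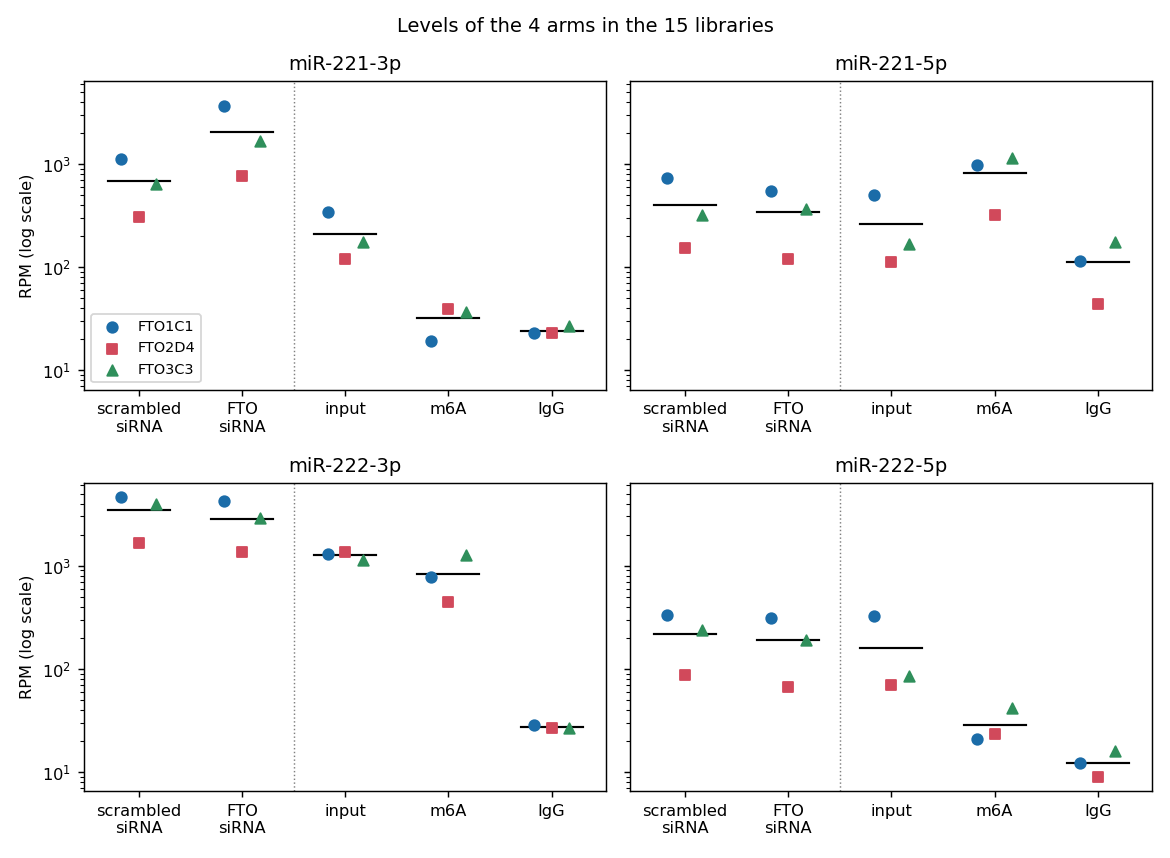
Level of each arm in RPM (y axis, log scale) in the 15 libraries, by group (x axis), with 1 point per cell line and a bar at the mean. miR-221-3p is higher with FTO siRNA than with scrambled siRNA in each cell line (2030.4 against 691 RPM on average), miR-222-3p and miR-221-5p are far above IgG in the m6A libraries, and FTO2D4 is lowest for all 4 arms in both siRNA groups.

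The ratio of both arms of a hairpin within a library does not depend on the library total and shows whether the arms moved apart. With scrambled siRNA, miR-221-3p had 1.53, 2.00 and 1.97 reads per read of miR-221-5p in FTO1C1, FTO2D4 and FTO3C3. With FTO siRNA it had 6.70, 6.30 and 4.55, which was higher in each cell line. The ratio rose 3.17-fold (log2 change 1.67, SE 0.17, adjusted p = 0.000207 by limma on log2 ratios with the cell line as a block). Of 693 hairpin names with both arms, 1.88% were called (0.866% higher and 1.01% lower), and 2 had a smaller p than miR-221. Among the increases the change of miR-221 was the largest, followed by miR-196a (1.52) and miR-30a (1.47), both named after their values were seen. Leaving out any cell line, dropping the block or changing the pseudocount or the filter kept the log2 change between 1.43 and 1.89 and the call.

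For miR-222 the ratio was 14.1, 19.0 and 16.6 under scrambled and 13.4, 20.1 and 15.05 under FTO siRNA in the same order. The log2 change was -0.04 with an SE of 0.16 (adjusted p = 0.933 by limma), and the groups overlapped. Comparing the guides with each other, miR-221-3p had 0.242, 0.186 and 0.160 reads per read of miR-222-3p under scrambled and 0.864, 0.567 and 0.584 under FTO siRNA. The log2 ratio rose in 3 of 3 cell lines, by 1.77 ± 0.14 (SD, n = 3, exact sign-flip permutation test, two-sided p = 0.25, the smallest that 3 pairs allow). For the passengers the corresponding change was 0.06 ± 0.44 (exact p = 0.75). The 8 comparisons of this kind, 2 arms in 4 contrasts, cannot reach 0.05 and are descriptions.

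**Figure D2:**
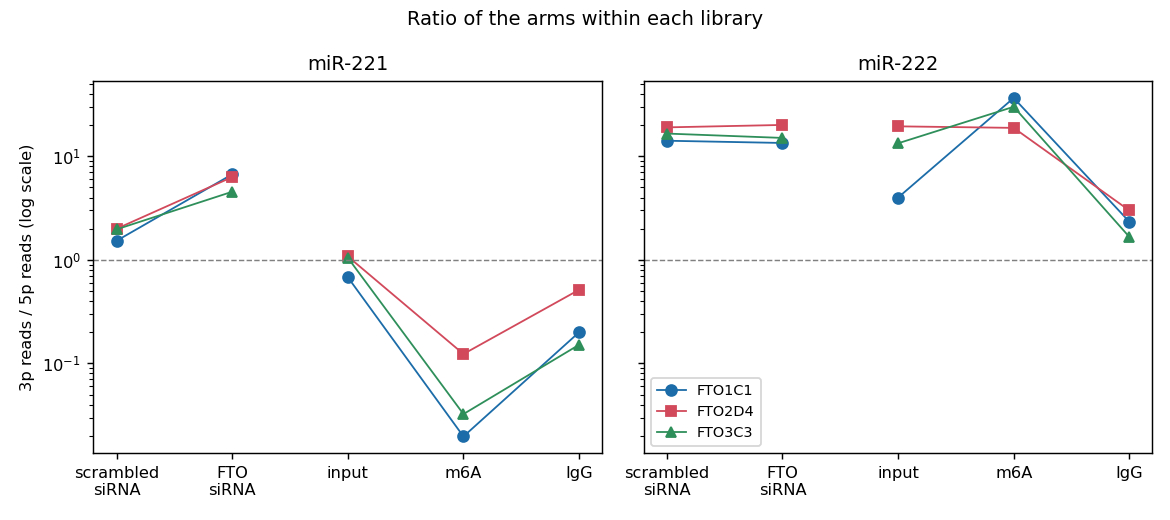
Reads of the 3p arm per read of the 5p arm (y axis, log scale) in each library, by group (x axis), with points of a cell line joined within an experiment and a dashed line at a ratio of 1. For miR-221 the ratio goes from 1.53 to 2.00 up to 4.55 to 6.70 after FTO knockdown and falls to 0.0197 to 0.123 in the m6A libraries, whereas miR-222 stays above 1 in all 15 libraries.

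RIP-seq was used to ask which miRNAs the anti-m6A antibody brings down beyond IgG. miR-222-3p and miR-221-5p were enriched in the m6A over the IgG libraries, and miR-221-3p and miR-222-5p were not called. miR-222-3p had 771 RPM in FTO1C1, 442 in FTO2D4 and 1263 in FTO3C3 in the m6A libraries, against 28.3, 26.7 and 26.8 RPM in the IgG libraries, which rest on 21, 21 and 5 reads. The groups lay far apart, with ratios of 27.2, 16.5 and 47.1. On the log2 scale the fold change was 4.69 (SE 0.37, adjusted p = 1.75e-05 by edgeR). miR-221-5p had 979.8, 321 and 1141 RPM in m6A and 115, 44.5 and 177 RPM in the IgG libraries. Its ratios of 8.55, 7.22 and 6.44 were close to each other, although FTO2D4 was the lowest line in both kinds of library. The log2 fold change was 2.88 (SE 0.28, adjusted p = 6.66e-05 by edgeR).

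miR-221-3p had 19.3, 39.6 and 37.0 RPM in the m6A and 22.9, 22.9 and 26.8 RPM in the IgG libraries, or 11, 54 and 184 against 17, 18 and 5 reads. The m6A level was below IgG in FTO1C1 and above it in the other lines, and the log2 fold change was 0.37 (SE 0.41, adjusted p = 0.502 by edgeR). miR-222-5p had 21.1, 23.5 and 42.0 RPM in the m6A and 12.1, 8.90 and 16.1 RPM in the IgG libraries, or 12, 32 and 209 against 9, 7 and 3 reads. It was higher in each line, but its log2 fold change of 1.18 (SE 0.44) had an adjusted p of 0.0588 by edgeR, and 0.0243 without the cell line as a block. At 3 to 18 reads per IgG library for these 2 arms, counting error alone limits what can be seen. Libraries were amplified by PCR and carry no molecular identifiers, and such limits cover counting error only.

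Of 2123 tested miRNAs 39.7% were called, 38.5% higher and 1.22% lower, and of the 4 arms 2 were called higher. Groups did not overlap for 3 of the 4 arms and for 51.3% of all miRNAs. The median log2 fold change was 0.85. Relative to it, miR-222-3p stood 3.84 and miR-221-5p 2.03 above, miR-222-5p 0.32 above and miR-221-3p at -0.48 on the log2 scale, so the sign of miR-221-3p depends on the scale. With TMM factors 457 miRNAs were called higher and 313 lower in place of 817 and 26, and with totals that leave out miR-6080 454 and 259. miR-222-3p and miR-221-5p were called higher under every alternative tried, with log2 fold changes of 5.08 and 2.90 without FTO2D4 and 3.999 and 2.21 with totals that leave out miR-6080. By the rule of the Methods, here taken as at least 100 RPM in every m6A library and a mean ratio of at least 2 with an IgG count of 0 set to 3 reads, 258 of 2189 miRNAs (11.8%) were enriched, among them miR-222-3p (mean ratio 30.3 ± 15.5, SD, n = 3) and miR-221-5p (7.41 ± 1.06). The mean ratio of miR-222-5p was 2.33 ± 0.51, but it missed the cutoff of 100 RPM. The paper reports fewer enriched miRNAs by its own rule, so the version used here does not reproduce its set.

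The input shows what was there before precipitation. miR-221-3p had 341, 121 and 175 RPM in the input, above its level in either precipitate in every line, and its log2 fold change of m6A against input was -2.55 (SE 0.47, adjusted p = 2.33e-05 by edgeR). miR-222-5p had 326, 70.6 and 85.3 RPM in the input and was also lower in the m6A libraries (log2 fold change -2.06, SE 0.49, adjusted p = 0.000497 by edgeR). miR-221-5p had 501, 112 and 167 RPM in the input and was higher in the m6A libraries of all 3 lines, by 1.96, 2.88 and 6.82-fold (log2 fold change 1.75, SE 0.43, adjusted p = 0.000691 by edgeR). miR-222-3p had 1301, 1374 and 1139 RPM in the input, and its log2 fold change of -0.75 was not called (SE 0.43, adjusted p = 0.109 by edgeR).

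Of 2189 miRNAs tested, 77.2% were called between m6A and input, 66.8% higher and 10.4% lower, and groups did not overlap for 79.1% of all miRNAs and for 2 of the 4 arms. The median log2 fold change was 1.66. The increase of miR-221-5p was 0.09 above the median, whereas miR-222-3p stood at -2.40, miR-222-5p at -3.71 and miR-221-3p at -4.204 relative to it. With TMM factors 584 were called higher and 615 lower in place of 1462 and 228, miR-221-5p was not called (log2 fold change 0.22, adjusted p = 0.612 by edgeR) and miR-222-3p was called lower (-2.28, adjusted p = 0.000423 by edgeR). miR-222-3p was called lower without FTO3C3 too (-1.20, adjusted p = 0.0199 by edgeR). In the IgG libraries all 4 arms were lower than in the input, with log2 fold changes of -5.55 (SE 0.50) for miR-222-3p, -3.59 (0.58) for miR-222-5p, -3.03 (0.51) for miR-221-3p and -1.16 (0.45) for miR-221-5p and adjusted p by edgeR between 2.83e-26 and 0.0195. Of 2063 miRNAs, 56.7% were called in that comparison, 20.7% lower and 36.0% higher, or 608 and 564 with TMM factors in place of 427 and 742. Groups did not overlap there for 60.8% of all miRNAs and for 3 of the 4 arms. The call of miR-221-5p was lost without FTO1C1 (log2 fold change -0.62), without FTO2D4 (-1.08) and with totals that leave out miR-6080 (-0.02). The 3 RIP-seq comparisons share libraries and are not independent of each other.

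**Figure D3:**
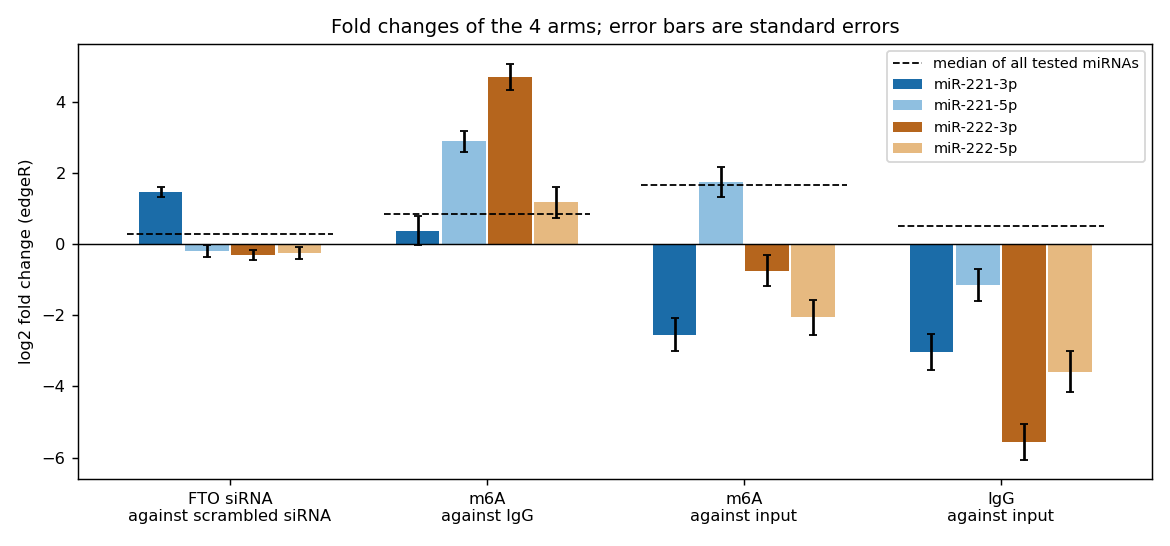
log2 fold change by edgeR (y axis) of the 4 arms in the 4 comparisons (x axis), with SEs as error bars and the median of all tested miRNAs as a dashed line. miR-221-3p is the arm that rises after knockdown (1.47) and the one nearest to 0 for m6A against IgG (0.37), where miR-222-3p reaches 4.69.

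Between m6A and IgG the 3p to 5p ratio fell for miR-221 and rose for miR-222. In the input, miR-221-3p had 0.680, 1.08 and 1.05 reads per read of miR-221-5p in FTO1C1, FTO2D4 and FTO3C3, so both arms were about equally frequent. In the m6A libraries the ratio was 0.0197, 0.123 and 0.0324 and in the IgG libraries 0.200, 0.514 and 0.152, so the passenger was the major arm in both. The log2 ratio changed by -4.39 for m6A against input (SE 0.47, adjusted p = 0.000521 by limma) and by -2.57 for m6A against IgG (SE 0.53, adjusted p = 0.0087). Without FTO2D4 the latter was -2.82 and not called (adjusted p = 0.0695 by limma).

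miR-222-3p had 3.99, 19.5 and 13.4 reads per read of miR-222-5p in the input, 36.6, 18.8 and 30.1 in the m6A and 2.33, 3 and 1.67 in the IgG libraries. For m6A against IgG the log2 ratio rose by 3.64 (SE 0.60, adjusted p = 0.00329 by limma), with IgG counts of miR-222-5p of 3 to 9 reads. For m6A against input the change of 1.42 was not called (SE 0.61, adjusted p = 0.0887 by limma), and it was called without FTO2D4 (2.16, adjusted p = 0.000422) and without the block (1.42, adjusted p = 0.0473). For IgG against input both log2 ratios were lower, with changes of -1.82 for miR-221 (adjusted p = 0.00306) and -2.22 for miR-222 (adjusted p = 0.00111 by limma). The call for miR-221 was lost without FTO1C1 (-1.86, adjusted p = 0.0667) and without FTO3C3 (-1.39, adjusted p = 0.0553 by limma). Against these calls stand those over all hairpin names. For m6A against IgG 30.8% of 591 were called, 10.5% higher and 20.3% lower. For m6A against input 54.3% of 598 were called, 23.6% higher and 30.8% lower, and for IgG against input 57.0% of 428, 31.3% higher and 25.7% lower. The guides with the same seed can also be set against each other. miR-221-3p had 0.0251, 0.0897 and 0.0293 reads per read of miR-222-3p after anti-m6A and 0.810, 0.857 and 1.00 after IgG precipitation, a log2 difference of -4.43 ± 1.03 (SD, n = 3, exact p = 0.25), lower in 3 of 3 cell lines.

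The cell lines are separate clones, and the 4 arms differed between them in the knockdown libraries. FTO1C1 was highest and FTO2D4 lowest for every arm under both siRNAs. In edgeR's test over the cell lines, with the treatment as a covariate, 5 of 2397 miRNAs (0.209%) had an adjusted p under 0.05, with 253 at an unadjusted p under 0.05. Of these 5, 4 were the arms of miR-221 and miR-222, which held the first 4 places by p (adjusted p = 0.00377 for miR-221-3p, miR-222-5p and miR-221-5p and 0.00652 for miR-222-3p by edgeR), and miR-4648 was the fifth (adjusted p = 0.0461), named after its values were seen. FTO2D4 was lower than FTO1C1 by 4.66-fold for miR-221-5p (log2 difference -2.22, SE 0.22), 4.23-fold for miR-222-5p (-2.08, SE 0.20), 4.21-fold for miR-221-3p (-2.07, SE 0.19) and 2.99-fold for miR-222-3p (-1.58, SE 0.17), with adjusted p between 0.000989 and 0.00184 by edgeR. The median difference of all miRNAs was 0.14. FTO3C3 lay between, at 2.14-fold to 2.82-fold above FTO2D4 (adjusted p between 0.0286 and 0.0345 by edgeR), and its difference from FTO1C1 was not called (log2 differences from -0.98 to -0.39, adjusted p between 0.279 and 0.392).

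Each siRNA group alone shows the same order. With scrambled siRNA the highest line was 2.83 to 4.81 times the lowest for the 4 arms, and with FTO siRNA 3.14 to 4.79 times, while the median miRNA with at least 15 RPM differed 1.40-fold and 1.32-fold. Of 1216 such miRNAs with scrambled siRNA, 27 to 73 had a larger ratio than the arm in question. Of 1374 with FTO siRNA, 1 to 7 did, the fewest for miR-221-3p. Taking FTO2D4 over FTO1C1, 6 of 1305 miRNAs were lower by at least 1 on the log2 scale under both siRNAs, namely the 4 arms, miR-3616-3p and miR-6881-3p, the latter 2 named after their values were seen. The call rests on FTO1C1 and FTO2D4. Without FTO1C1, 0 of the 4 arms and 0 of all miRNAs were called, and without FTO2D4 2 of the 4 arms among 75 miRNAs, whereas TMM factors and DESeq2 kept all 4 arms.

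**Figure D4:**
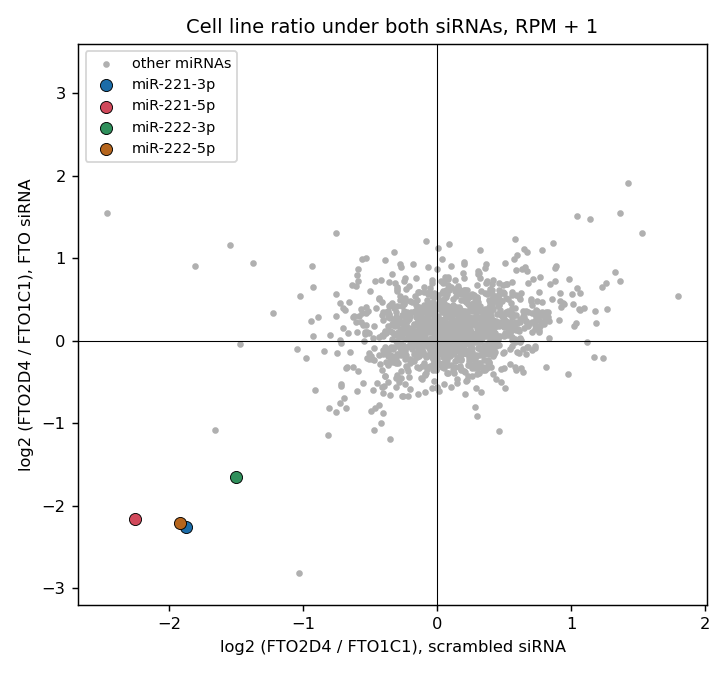
log2 ratio of FTO2D4 to FTO1C1 (RPM + 1) with scrambled siRNA (x axis) and with FTO siRNA (y axis) for 1305 miRNAs with a mean of at least 15 RPM. The 4 arms lie at the lower left, between -2.26 and -1.502 on both axes, and miR-3616-3p and miR-6881-3p are the only grey points (other miRNAs) at -1 or lower on both.

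In the input libraries of untreated cells, the same order held for 3 of the 4 arms. FTO1C1 had 4.49 times the level of FTO2D4 for miR-221-5p, 4.62 times for miR-222-5p and 2.83 times for miR-221-3p, and larger ratios of the highest to the lowest line were found for 7, 3 and 72 of 1164 miRNAs. miR-222-3p differed only 1.21-fold between the input libraries, less than 93.0% of the miRNAs. It had differed 2.83-fold and 3.14-fold in the knockdown libraries of the same clones. Over all 9 RIP-seq libraries, with the precipitate as a covariate, 0 of 2189 miRNAs were called between cell lines by edgeR, with 75 at an unadjusted p under 0.05, and miR-221-5p had the fourth smallest p (adjusted p = 0.384). In the m6A libraries miR-221-5p was still lowest in FTO2D4, as was miR-222-3p, whereas miR-221-3p and miR-222-5p were lowest in FTO1C1.

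In the knockdown libraries, the 2 passengers and miR-222-3p were most like each other. Over these 6 knockdown libraries, the miRNA with the highest Pearson correlation of log2 RPM to miR-222-3p was miR-222-5p (0.99) among 1304 compared, and to miR-221-5p it was miR-222-5p (0.97), followed by miR-222-3p (0.95). miR-361-5p came next for both arms of miR-222 (0.95). miR-221-3p, which rose after knockdown, was instead most like miR-4786-3p, miR-19a-5p and miR-3064-5p (0.97, 0.96 and 0.95) and correlated at 0.57 to 0.66 with the other 3 arms. Over the 9 RIP-seq libraries miR-222-3p was most like miR-22-3p, miR-539-3p and miR-548k (0.99, 0.99 and 0.98), miR-221-5p most like miR-576-3p, miR-4797-5p and miR-490-5p (0.92, 0.92 and 0.91), and miR-221-3p most like miR-4768-3p, miR-1180-3p and miR-6513-3p (0.96, 0.95 and 0.95). miR-222-5p was most like miR-4474-5p, miR-221-3p and miR-137 (0.95, 0.95 and 0.94). In these libraries miR-221-5p correlated at 0.62 with miR-222-3p and at 0.36 with miR-222-5p. Libraries share cell lines and groups, so these correlations are descriptions.

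Other miRNAs of the X chromosome, where both genes lie, were taken as a list of chosen names, which does not cover the chromosome. After FTO knockdown, 2 of 20 tested were called higher and 0 lower, against 4.88% and 0.501% of all miRNAs. The 2 were miR-651-5p (log2 fold change 2.67, SE 0.20, adjusted p = 0.000133 by edgeR) and let-7f-2-3p (0.89, SE 0.21, adjusted p = 0.0377). Their median of 0.14 compares with 0.29 over all miRNAs. Between cell lines 0 of the 20 were called, and FTO2D4 against FTO1C1 ranged from -0.85 to 0.47 with a median of 0.03 on the log2 scale. Of 13 tested for m6A against IgG, 6 were called higher, against 38.5% of all miRNAs. Of 15 tested against input, 9 were higher and 2 lower in the m6A libraries (66.8% and 10.4% of all) and 4 higher and 5 lower in the IgG libraries (36.0% and 20.7% of all). Of 11 guide strands known to promote growth, such as those of the miR-17-92 cluster and miR-21-5p, 1 was called after knockdown, miR-25-3p, which fell by 0.61 on the log2 scale (SE 0.12, adjusted p = 0.0246 by edgeR). Between cell lines in the knockdown libraries 0 of the 11 were called, against 0.209% of all miRNAs. FTO2D4 against FTO1C1 ranged from -0.79 to 0.98 for them on the log2 scale, with a median of -0.60 against 0.14 over all. In the m6A libraries 9 of the 11 were higher than with IgG (38.5% of all miRNAs, median log2 fold change 2.37 against 0.85 over all), and 10 of the 11 were lower and 1 higher than in the input (10.4% and 66.8% of all, median -4.34 against 1.66). In the IgG libraries, too, 10 were lower and 1 higher than in the input (20.7% and 36.0% of all, median -7.55 against 0.52).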

How the data were processed

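The authors deposited raw counts of reads for each mature miRNA. According to the Methods and the labels, adapters were removed with cutadapt and reads were matched to the mature miRNAs of miRBase, with no genome. RPM were computed here from all miRNA reads. Each whole table was tested by edgeR's quasi-likelihood method (filterByExpr with a minimum count of 10, miRNA read totals as library sizes, cell line as block, Benjamini-Hochberg threshold 0.05), with SE as the log2 fold change over the root of F. Arm ratios were tested by limma on log2 ratios of counts plus 0.5, for hairpin names with a mean of at least 10 reads on both arms.

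The same clone gave each pair of libraries. Deviations of paired libraries from group means correlated at 0.225 to 0.334 in the knockdown and -0.0878 to 0.0609 in RIP-seq. p-values of the group comparisons set the mean within-clone difference against an estimate of its variation over 3 clones. The block removes level differences between clones. In edgeR and limma, that variance estimate draws largely on the other miRNAs or hairpin names tested. For IgG against input, p-values by edgeR were close to those of a normal distribution, so an arm's own variation over clones carried little weight. There miR-221-5p was called (adjusted p = 0.0195 by edgeR) with within-line ratios of 0.229, 0.398 and 1.06. In the tests between cell lines the clone is the factor tested, the residual is the spread between libraries of a clone once treatment or precipitate is fitted, and each line is 1 clone. Libraries of a group differed beyond sampling noise (chi-square per degree of freedom 6.11 to 145). Tests were also run on simulated counts with the same dispersion for every miRNA and, for the group comparisons, no difference between clones. Such counts lack the clone differences of the real libraries, so they cannot show how the tests behave on those libraries.

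Named miRNAs are the 4 arms, the 3 most correlated with each arm per table (at least 15 RPM on average), miR-10a-5p and miR-6080 for their read shares, and from each list up to 2 highest and 2 lowest of the members called after knockdown. Others are markers, examples of a list, or marked as named after their values were seen. Members, lists and alternatives were chosen with earlier results of these data known. Software was matplotlib 3.10.9, scipy 1.17.1, pandas 2.3.3, numpy 2.4.6 and Python 3.11.15, with DESeq2 1.42.0, limma 3.58.1 and edgeR 4.0.16 in R 4.3.3.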

Additional observations from a re-analysis of the deposited data

Results flagged for a closer look

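In 4 comparisons 1 cell line went against the other 2, a difference between lines that was not tested because each has 1 library per group. After knockdown, miR-221-5p was at 1.14 times its control level in FTO3C3 and below 1 in the others. For m6A against IgG, miR-221-3p was at 0.842 in FTO1C1 and above 1 in the others. For m6A against input, miR-222-3p was at 1.11 in FTO3C3 and below 1 in the others. For IgG against input, miR-221-5p was at 1.06 in FTO3C3 and below 1 in the others.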

How the results depend on the processing

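Of the recomputed values that answer a comparison, 101 stayed the same, 10 counts moved and 1 value reversed. Counts were the same within 1.5 times, and log2 ratios of miR-221 to miR-222 within their SD of the main value. Among values of single arms and hairpins, 161 kept their direction and side of the threshold. A call was gained by 7 and lost by 10, and 4 reversed in direction. Without the cell line as a block, 0 of the 4 arms were called after knockdown in place of 1, and 2 hairpins in place of 1 for the arm ratios of m6A against input. DESeq2 called 2 arms after knockdown. With a cell line left out, the arms called after knockdown ranged from 0 to 1, those called between cell lines from 0 to 4 of 4, and the hairpins with a called arm ratio from 1 to 2 in each RIP-seq comparison. miR-221-3p for m6A against IgG reversed to -0.40 with TMM factors, -0.44 with DESeq2 and -0.35 without miR-6080 in the totals, uncalled throughout. The arm ratio of miR-222 after knockdown lay between -0.11 and 0.0032 and the change of miR-221-5p over miR-222-5p between -0.17 and 0.27 with a line left out, all uncalled. The cause of these changes was not tested. Over all miRNAs, calls after knockdown numbered 129, and 58 with TMM factors, 41 without the block, 0 without FTO1C1 and 201 without FTO3C3. For m6A against IgG they numbered 843, and 470 without FTO2D4, and for m6A against input 1690, and 1074 with DESeq2. Between cell lines they numbered 5, and 9 with TMM factors, 12 without FTO3C3, 75 without FTO2D4 and 46 with DESeq2. With a mean of at least 50 reads on both arms, neither hairpin was left in the arm ratios of m6A against IgG. The leave-one-out and pseudocount alternatives for the ratio of miR-221 to miR-222 were chosen after seeing the data. IgG counts of 3 to 85 reads per arm and library limit the folds over IgG.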
